A study of Bombyx mori with 3 samples.

Results

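Juvenile hormone is a lipid hormone of insects that is made in the corpora allata, a pair of glands behind the brain, and that keeps a larva from entering metamorphosis. In the hemolymph it travels bound to juvenile hormone binding protein (JHBP), which the fat body secretes. It is removed by juvenile hormone esterase, which cleaves its methyl ester, and by juvenile hormone epoxide hydrolase, which opens its epoxide to a diol that a diol kinase then phosphorylates. The fat body, the insect counterpart of liver and adipose tissue, makes the binding protein and degrading enzymes, and it also responds to the hormone. The genes described here are the 47 of 23229 gene probes whose annotation on the array named juvenile hormone, JHBP, an epoxide hydrolase, takeout, farnesoic acid or methoprene and did not name ecdysone, storage proteins or hexamerins. Each probe was 1 spot per array. The choice used the wording of the annotation and no measured value, but it was made with earlier results of these data known.

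The tested samples were fat bodies of silkworm larvae (Bombyx mori, strain p50, mixed sex) on day 3 of the fifth instar, reared on mulberry leaves dipped in the organophosphate insecticide phoxim at 4 µg/mL and dissected after 24 h. Control larvae of the same strain and stage ate leaves dipped in water. Each group held 3 samples, 30 larvae were used for each experiment, and 3 two-colour arrays each carried the phoxim and the control RNA of 1 replicate. The comparison asks which of these genes differ in the fat body after the insecticide. According to the labels the phoxim RNA always carried the Cy5 dye, but the header of the second array's file assigns it Cy3. The header was followed, and values with the labelled order are given where they change a result.

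By role, the probes comprised 14 for JHBP or JHBP-like proteins, 4 for takeout-like carriers, 2 for intracellular binding proteins, 5 for esterases, 7 for epoxide hydrolases, 5 for diol kinases, 7 for methyltransferases of hormone synthesis and 3 for response genes. Of the 47 probes, 7 carried a gene ID, and all 7 IDs were found in the RefSeq gene table (assembly ASM3026992v2), used here for names only. The other 40 were described by a similar protein, often of another insect, so their role is that of the best match. A pair of methyltransferase probes (sw18135 and sw22960) was designed on 1 contig model and shared an expressed sequence tag (EST), and a pair of diol kinase-like probes (sw08065 and sw09988) shared both of their ESTs. Those pairs are not independent measurements of different genes.

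A minority of the family could be compared in fat body RNA. A signal counted as above background when it exceeded the 95th percentile of the negative control spots of its dye and array. A probe was tested when at least 1 of the 2 RNAs passed this on all 3 arrays. That held for 13 of the 47 probes (27.7%), beside 26.5% of all gene probes. Of the 34 others, 23 were above background in none of the 6 samples and 11 in at most 3. Among the 13 tested probes, 10 were above background in all 6 samples. All values below refer to these 13 unless a probe is said to be untested, and a difference between phoxim and control is a log2 ratio of phoxim over control.

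**Figure D1:**
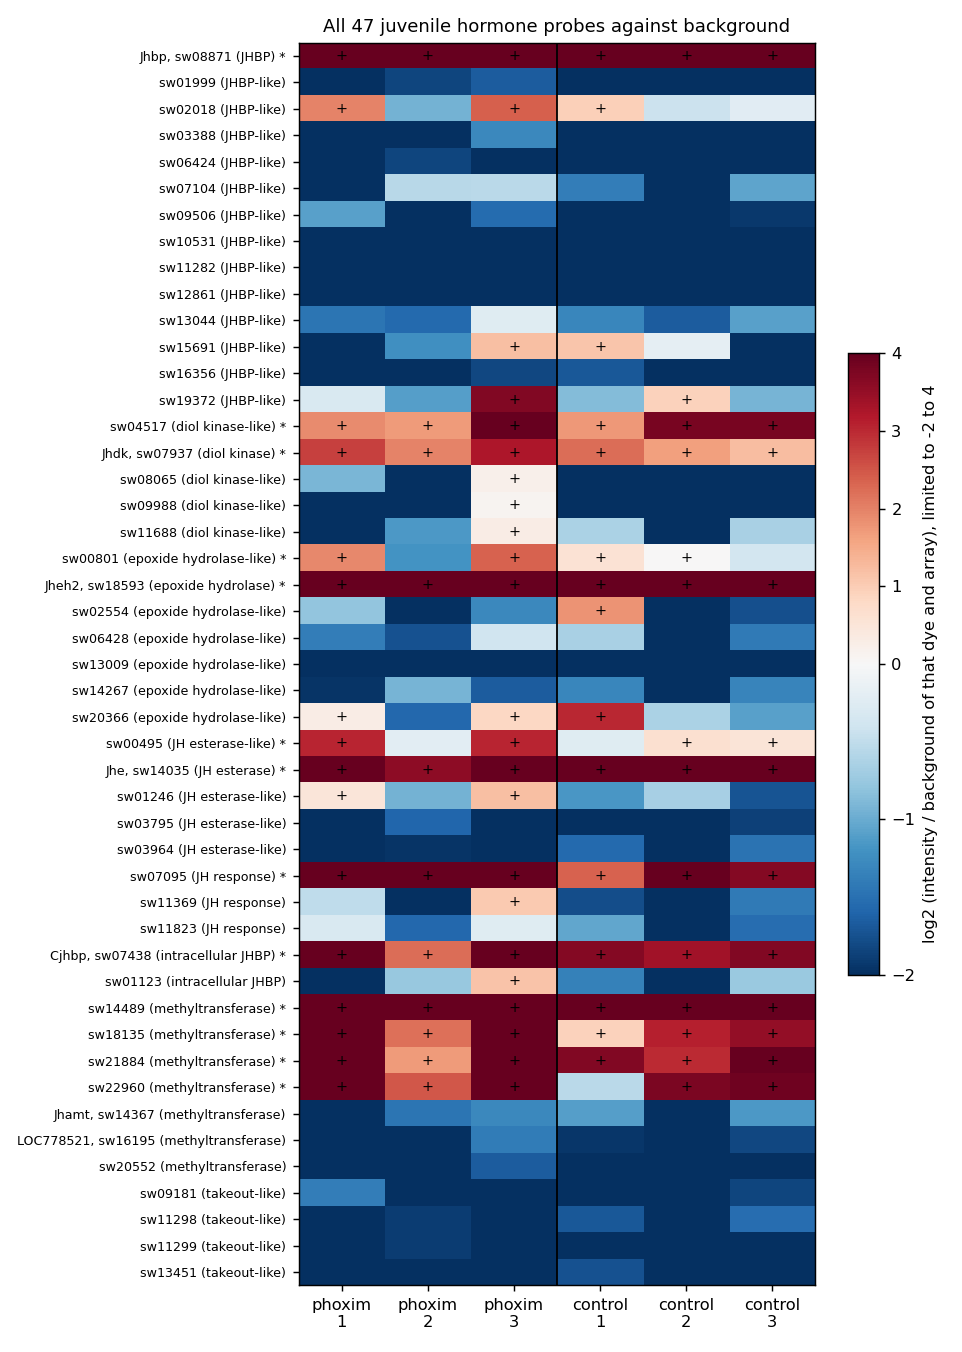
Signal of all 47 probes (rows, by role) in the 3 phoxim and the 3 control samples (columns), as log2 of the intensity over the background of that dye and array, limited to -2 to 4. A plus marks a value above background and an asterisk the 13 tested probes. The takeout-like rows hold no plus, and of the JHBP rows only Jhbp itself holds one in every sample.

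The 4 takeout-like probes, named after a carrier protein that links feeding and the daily clock in Drosophila, were above background in no sample. Their intensities as deposited lay between 0 and 82. Of the 13 JHBP-like probes other than Jhbp, none was tested and 10 were never above background. The 3 that were seen at all were sw02018, sw15691 and sw19372. Probe sw02018 had intensities of 186, 159 and 165 in phoxim replicates 1, 2 and 3, against 363, 75 and 150 in control replicates 1, 2 and 3. It passed the background in phoxim replicates 1 and 3 and in control replicate 1. Probe sw15691 had 10, 131 and 73 in phoxim RNA, against 406, 89 and 43 in control RNA. Probe sw19372 reached 411 in phoxim replicate 3, with 38 and 143 in phoxim replicates 1 and 2, against 103, 190 and 92 in control RNA. Probe sw15691 passed the background in phoxim replicate 3 and control replicate 1, and sw19372 in phoxim replicate 3 and control replicate 2. No array had both RNAs of these probes above background except the first array for sw02018.

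The probe annotated as Jhamt (juvenile hormone acid methyltransferase), the gene of the last step of hormone synthesis, was also above background in no sample. Its intensities were 7, 111 and 13 in phoxim RNA, against 88, 0 and 79 in control RNA, all under the background of their dye. The putative farnesoic acid methyltransferase LOC778521 stood at 2, 54 and 12 in phoxim RNA, against 49, 0 and 50 in control RNA, although 37 ESTs were listed for it. Such values say that the transcripts were not detectable with these probes.

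Background differed by dye. It was 46.9, 307.1 and 31.8 in the phoxim channel of replicates 1, 2 and 3, against 188.35, 101.0 and 175.7 in the control channel. Of the 34 untested probes, 3, 0 and 10 were above background in phoxim replicates 1, 2 and 3, against 4, 1 and 0 in the control replicates. The 10 in phoxim replicate 3 met the lowest background of all samples, and 5 of them were seen in that sample alone. Among all gene probes, 44.4% exceeded background in phoxim replicate 3, against 27.2% in control replicate 3.

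Detection went together with sequence evidence from other libraries. Of the 13 tested probes, 10 (76.9%) had at least 1 EST listed, against 9 of the 34 untested ones (26.5%). Over all gene probes the shares were 45.2% of those tested and 19.3% of those not tested. The EST counts came from the array annotation and had no part in the choice of members. Among those with many ESTs and no stable signal was sw01123, described as a high affinity nuclear hormone binding protein, with 27 ESTs. It gave 9, 182 and 70 in phoxim RNA, against 74, 21 and 105 in control RNA, and passed the background in phoxim replicate 3 alone.

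No member of the family passed the phoxim comparison. In the limma fit, adjusted by Benjamini-Hochberg over all 6154 tested probes, 0 of 13 members reached an adjusted p under 0.05, with adjusted p-values of 0.35 to 0.98. Nor did any other probe (0.0% of all tested). Without adjustment, 2 of 13 members (15.4%) had a limma p under 0.05, beside 10.9% of all tested probes. One of the 2 was higher in phoxim RNA, a direction that 6.13% of all probes took at that p, and the other was lower, as were 4.81%. These shares are close to the background, so the counts show nothing about the family.

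In direction the family was split. The mean ratio was above 0 for 6 members and below 0 for 7, with a median of -0.04, beside 0.003 for all tested probes. The sign was the same on all 3 arrays for 6 members, 3 higher and 3 lower (46.2%), beside 35.3% of all probes. None of the 13 differed at least 2-fold in 1 direction on every array, while 0.699% of all probes were higher and 0.309% lower by that much. Phoxim and control levels overlapped for each of the 13, while they were apart for 13.7% of all probes. The SD of a member between arrays ranged from 0.15 to 2.38, with a median of 0.75, beside 0.49 for all tested probes.

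**Figure D2:**
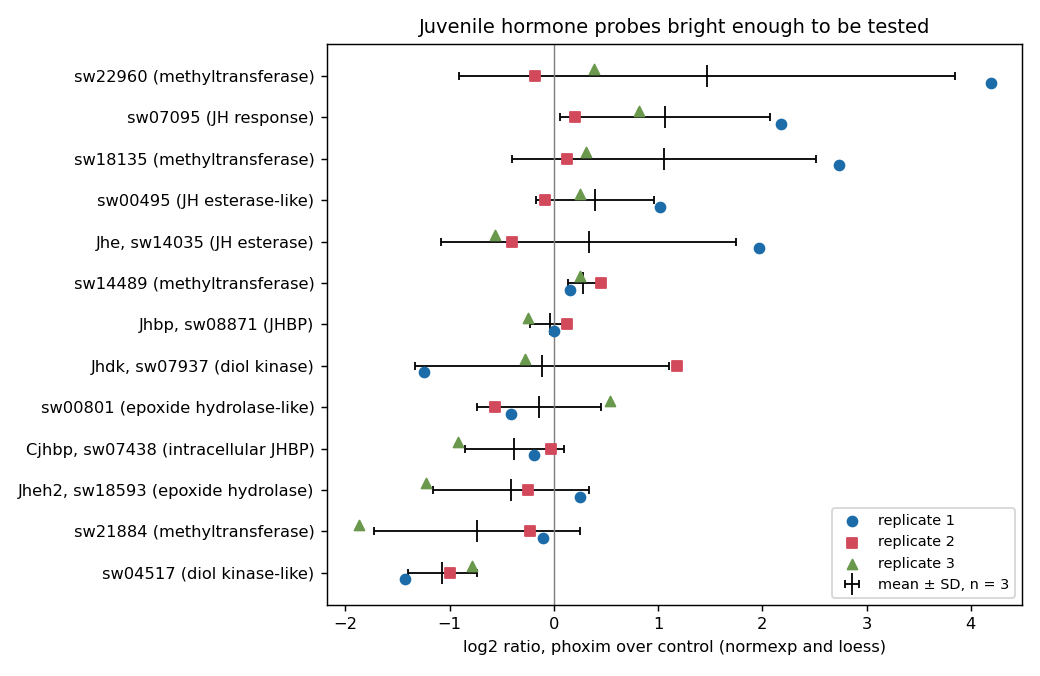
Log2 ratio of phoxim over control for the 13 tested probes (rows, ordered by mean) on the 3 arrays, with the mean and SD (n = 3). The members with the highest means take them from replicate 1, where sw22960 stood at 4.19 against a control value under background, and sw04517 is the lowest row with all arrays below 0.

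Replicate 1 carried the largest differences. On its array 7 of 13 members differed at least 2-fold in either direction, beside 21.8% of all tested probes. In replicate 2 it was 1 of 13, beside 7.57%, and in replicate 3 it was 2 of 13, beside 18.2%. The ratios of the 13 ran between -1.43 and 4.19 in replicate 1, where the highest (sw22960) was taken against a control value under background, and the next highest was 2.74 (sw18135). They ran between -0.998 and 1.18 in replicate 2 and between -1.87 and 0.82 in replicate 3. Of the 7 members, 5 were higher and 2 lower in phoxim RNA of replicate 1. Without that replicate the members with an unadjusted limma p under 0.05 were sw04517 and sw21884, in place of sw04517 and sw07095.

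The carrier Jhbp, the hemolymph binding protein that RefSeq now calls hJHBP, hardly differed. Its normalized log2 levels were 14.32, 13.99 and 14.22 in phoxim replicates 1, 2 and 3, against 14.31, 13.87 and 14.46 in control replicates 1, 2 and 3. The 6 samples lay within 1 log2 unit, and the groups overlapped. The log2 ratio was -0.04 ± 0.19 (SD, n = 3), with a 95% interval of -0.69 to 0.61 (limma, adjusted p = 0.98). In fold terms the interval ran from 0.62 to 1.53, so that a 2-fold difference in either direction lies outside it. The sign of the mean changed with the normalization, with 0.30 under median centring and 0.32 with the deposited ratios, each inside that interval.

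For the cytosolic binding protein Cjhbp, which acts inside cells, the mean rested on replicate 3. Levels of 10.95, 10.54 and 10.28 in phoxim RNA stood against 11.14, 10.57 and 11.20 in control RNA, with overlapping groups. The ratios of -0.19, -0.03 and -0.92 averaged -0.38 ± 0.47 (SD, n = 3), and limma gave an adjusted p of 0.67. The mean was -0.11 without replicate 3 and -0.046 with median centring. The annotation assigns lactoylglutathione lyase activity, an enzyme of methylglyoxal removal, to the same protein.

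Juvenile hormone esterase, which ends hormone action in the last larval instar, moved in opposite directions between arrays. Jhe (jhe1 in RefSeq) had levels of 13.65, 11.93 and 12.29 in phoxim RNA, against 11.68, 12.33 and 12.86 in control RNA. Phoxim replicate 1 was the highest of the 6 samples and control replicate 1 the lowest. The ratios were 1.97, -0.40 and -0.56, a 3.91-fold higher level in phoxim RNA of replicate 1 beside lower levels in the other 2. Their mean was 0.33 ± 1.42 (SD, n = 3; limma adjusted p = 0.85), and without replicate 1 it was -0.48. A second esterase probe, sw00495, matched to the enzyme of Heliothis virescens, was also highest relative to control in replicate 1. It had ratios of 1.01, -0.08 and 0.25 and a mean of 0.39 ± 0.56 (limma adjusted p = 0.67). It was above background in 2 phoxim and 2 control samples, and without replicate 1 its mean was 0.08. The 3 remaining esterase probes were untested.

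The epoxide hydrolase gene Jheh2 had levels of 13.53, 12.63 and 12.88 in phoxim RNA, against 13.28, 12.88 and 14.10 in control RNA. Control replicate 3 was the highest sample. Ratios of 0.25, -0.25 and -1.22 gave a mean of -0.41 ± 0.75 (SD, n = 3), with a 95% interval of -1.26 to 0.44 (limma, adjusted p = 0.70). Without replicate 3 the mean was -0.002. The esterase and the hydrolase thus each took most of their mean from 1 array, Jhe from replicate 1 and Jheh2 from replicate 3.

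A second hydrolase probe that was tested, sw00801, had levels of 7.94, 7.18 and 8.09 in phoxim RNA, against 8.35, 7.74 and 7.55 in control RNA. Its ratios of -0.41, -0.56 and 0.54 averaged -0.14 ± 0.60 (limma adjusted p = 0.91), and the sign turned with the labelled dye order (0.23). The annotation lists glutathione peroxidase activity for the same probe, so its identity as a hydrolase is uncertain. Among the untested hydrolase probes, sw20366 and sw02554, matched to the enzyme of Spodoptera exigua, were bright in 1 sample. Probe sw20366 had intensities of 57, 103 and 56 in phoxim RNA, against 1508, 65 and 83 in control RNA. Probe sw02554 had 27, 37 and 13 in phoxim RNA, against 655, 10 and 52 in control RNA. In each, control replicate 1 stood above all other samples, and no other replicate repeated it.

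The clearest downward difference of the family was that of a diol kinase-like probe, sw04517. Its levels were 7.92, 10.02 and 10.52 in phoxim RNA, against 9.34, 11.01 and 11.31 in control RNA. On each array the phoxim RNA was lower, while both RNAs of replicate 1 lay under those of the other replicates, so the groups overlapped. The ratios of -1.43, -0.998 and -0.78 averaged -1.07 ± 0.33 (SD, n = 3), or 2.10-fold lower in phoxim RNA, with a 95% interval of -1.75 to -0.39. Limma gave an unadjusted p of 0.0078 and an adjusted p of 0.35, so the probe did not pass. It remained below 0 in each of the 11 alternative settings, with means between -1.21 and -0.40. The smallest difference came with the labelled dye order, where the unadjusted limma p was 0.44. With median centring the mean was -0.71 and the unadjusted limma p 0.094.

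The annotated diol kinase gene, Jhdk, did not share this pattern. It had levels of 8.55, 10.29 and 8.49 in phoxim RNA, against 9.80, 9.11 and 8.76 in control RNA. Phoxim replicate 2 was the highest sample. The ratios of -1.25, 1.18 and -0.27 averaged -0.11 ± 1.22 (limma adjusted p = 0.96). With the labelled dye order all 3 ratios had the same sign, the mean was -0.90 and the unadjusted limma p 0.033, so its direction in replicate 2 rests on which dye held the phoxim RNA. Without replicate 1 the mean was 0.45. RefSeq gives the gene the synonym Scp2, and the annotation lists calcium ion binding for all 5 diol kinase probes; diol kinase resembles the sarcoplasmic calcium-binding proteins of muscle.

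Because of that resemblance, the muscle markers are given beside it. Of 90 muscle marker probes 39 were tested, 13 were higher and 1 lower at an unadjusted p under 0.05, and the median ratios were 1.01, 0.05 and 0.36 in replicates 1, 2 and 3. Their summed level ranged from 126511 to 206540 in phoxim RNA, against 56954 to 121142 in control RNA. On the same arrays the ratios of sw04517 were -1.43, -0.998 and -0.78. The list for the Malpighian tubules, the excretory organs, had medians of 0.006, -0.31 and -0.58 in replicates 1, 2 and 3. It was chosen by the words aquaporin, urate oxidase, uricase or V-ATPase in the annotation. Whether these genes were particular to that organ was not tested. Of its 15 probes 8 were tested and 3 were above background in no sample. Among the 8, 6 had means below 0, and 2 were lower at an unadjusted limma p under 0.05. Its median ratio was -0.35. Its summed level ranged from 12147 to 18759 in phoxim RNA, against 22595 to 23986 in control RNA, without overlap. The summed level of the muscle list, higher in phoxim RNA, did not overlap either. That of the brain and nerve list was lower without overlap, at 12602 to 13016 in phoxim RNA, against 13177 to 13966 in control RNA. The median ratio of its 6 tested probes was 0.21. Sums took in every probe of a list, tested or not, and 42 of the 64 brain and nerve probes were above background in no sample. The silk gland list, with 3 of 12 probes tested, had a lower median of -0.52. The testis and ovary list, with 27 of 86 tested, had a median of -0.02. The hemocyte, midgut, epidermis and trachea, and brain and nerve lists had medians of 0.04 to 0.21. The part of RNA from muscle, Malpighian tubules or other tissues in the members' values was not tested. Fat body markers were present as labelled, with 36 of 61 probes tested, 11 above background in no sample, and a summed level of 580830 to 801295 in phoxim RNA, against 502972 to 697982 in control RNA. Their median ratios were 0.75, -0.04 and 0.23 in replicates 1, 2 and 3, so replicate 1 was highest here as in the muscle list. Of the 36, 24 had means above 0 and 12 below, and 3 were higher and 0 lower at an unadjusted limma p under 0.05. In bulk tissue, fewer cells of a type and less RNA per cell cannot be told apart.

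The member with the smallest p among those higher in phoxim RNA was sw07095, which the annotation ties to a silkworm nucleotide record for juvenile hormone resistance protein I. In Drosophila, mutants resistant to a hormone analogue led to the Methoprene-tolerant gene, which encodes the hormone's intracellular receptor. Its levels were 12.08, 12.36 and 12.03 in phoxim RNA, against 9.90, 12.16 and 11.21 in control RNA. The phoxim samples lay close together (SD 0.18), and the control samples were spread (SD 1.13), with control replicate 1 the lowest. On each array the phoxim RNA was higher, by 4.52-fold in replicate 1, 1.15-fold in replicate 2 and 1.77-fold in replicate 3. The mean log2 ratio was 1.07 ± 1.01 (SD, n = 3), with a 95% interval of 0.08 to 2.05. Limma gave an unadjusted p of 0.038 and an adjusted p of 0.44, and the probe did not pass. The mean was 0.51 without replicate 1 and 0.93 with the labelled dye order, and limma's unadjusted p was then 0.17 and 0.089.

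The probe tied to resistance protein II, sw11369, was untested, with intensities of 33, 61 and 66 in phoxim RNA, against 55, 0 and 66 in control RNA. A juvenile hormone-inducible protein (sw11823) was above background in no sample. Of the response genes, only sw07095 could therefore be compared.

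**Figure D3:**
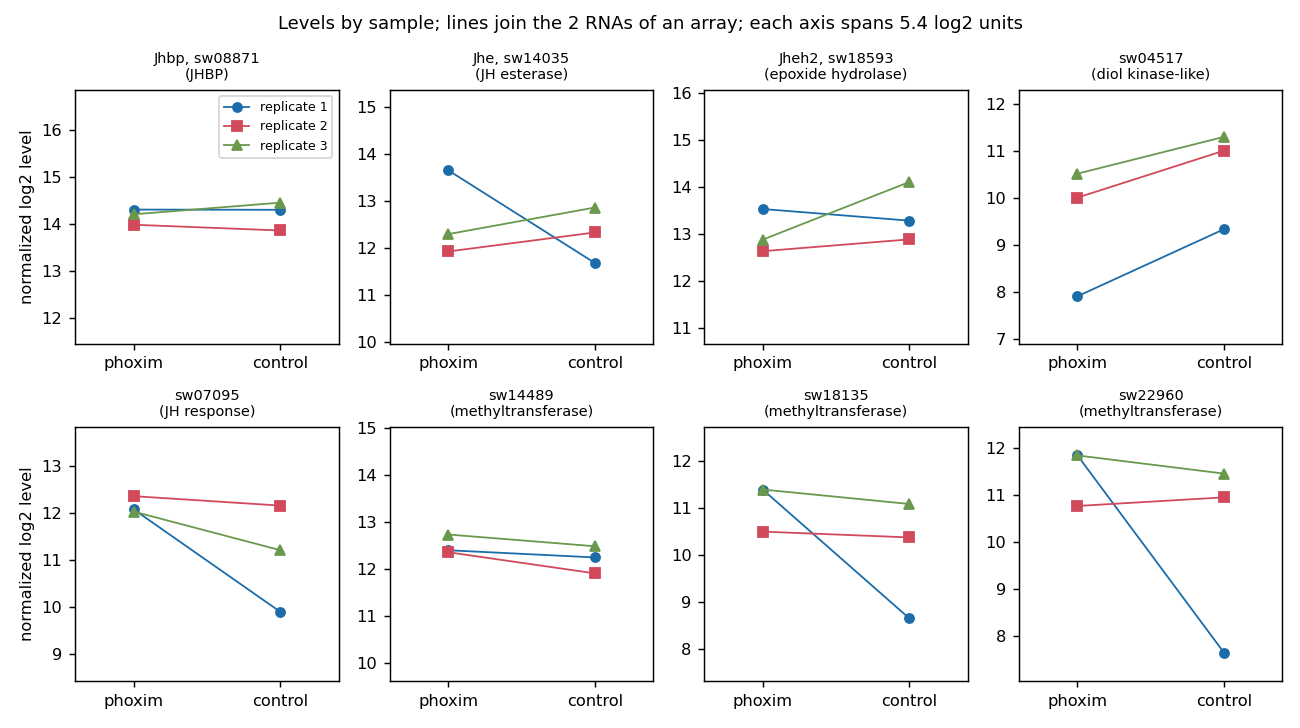
Normalized log2 level of 8 members in the phoxim and control RNA of the 3 replicates, with a line joining the 2 RNAs of an array. Each panel spans the same range of the log2 scale but has its own start, since levels are not compared between probes. Control replicate 1 is low for sw07095, sw18135 and sw22960, while the lines of sw04517 run parallel.

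Although the Jhamt probe was not above background in any sample, 3 of 4 further probes matched to the Jhamt protein were tested. The fourth, sw20552, was above background in no sample, with intensities of 6, 38 and 10 in phoxim RNA, against 26, 0 and 15 in control RNA. Probe sw14489 had levels of 12.40, 12.36 and 12.73 in phoxim RNA, against 12.25, 11.91 and 12.48 in control RNA. It was higher in phoxim RNA on each array by a small amount, with ratios of 0.15, 0.45 and 0.25. The mean of 0.28 ± 0.15 (SD, n = 3) had the smallest spread of the 13 members, with a 95% interval of -0.36 to 0.93 (limma, adjusted p = 0.73). Its mean was -0.02 with the labelled dye order.

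The probes sw18135 and sw22960 read 1 contig model. Probe sw18135 had levels of 11.39, 10.49 and 11.39 in phoxim RNA, against 8.65, 10.37 and 11.08 in control RNA. Probe sw22960 had levels of 11.84, 10.76 and 11.84 in phoxim RNA, against 7.65, 10.95 and 11.45 in control RNA. In both, control replicate 1 was far below the other samples, and in sw22960 it was not above background. The phoxim RNA of replicate 1 was 6.66-fold higher than its control for sw18135 and 18.3-fold higher for sw22960, the second against a value under background, while the ratios of replicates 2 and 3 were 0.12 and 0.31 for sw18135 and -0.18 and 0.39 for sw22960. The means were 1.06 ± 1.46 for sw18135 and 1.47 ± 2.38 for sw22960 (SD, n = 3; limma adjusted p = 0.52 and 0.54). Without replicate 1 they were 0.21 and 0.10. Without replicate 3 and with median centring, limma's unadjusted p was under 0.05 for both, and neither passed after adjustment.

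A farnesoic acid methyltransferase-like probe, sw21884, matched to a shrimp protein, ran the other way. Its levels were 11.07, 10.05 and 9.90 in phoxim RNA, against 11.17, 10.27 and 11.78 in control RNA. Ratios of -0.10, -0.23 and -1.87 gave a mean of -0.73 ± 0.99 (SD, n = 3; limma adjusted p = 0.54), and without replicate 3 the mean was -0.16. Phoxim replicate 3 was the lowest and control replicate 3 the highest of the 6 samples.

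Neighbouring pathways gave no called gene either. The isoprenoid list was chosen by words for the route from mevalonate to the farnesyl precursor of the hormone. It had 11 of 21 probes tested, 0 of them at an unadjusted p under 0.05 in limma, and a median of 0.03. Most of the tested probes were other enzymes taken in by the wording, among them some that attach isoprenoids to proteins or process such proteins. Those held its smallest p-values, a CAAX prenyl protease (sw10640, 0.61 ± 0.58) and a Rab geranylgeranyl transferase subunit (sw15722, 0.45 ± 0.43). Of the route itself, the tested probes were those of phosphomevalonate kinase (sw12388) at 0.10 ± 0.29 and isopentenyl diphosphate isomerase (sw09485) at 0.03 ± 0.44. Each was below 0 in replicate 1 and above 0 in replicates 2 and 3, so they say little about the route as a whole.

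Of the response and partner list, 4 of 11 probes were tested, and 1 was lower at an unadjusted p under 0.05. That was an FK506-binding protein (sw02992), a protein-folding enzyme, with ratios of 0.10, -1.17 and -2.23 and an unadjusted limma p of 0.047. A second FK506-binding protein probe (sw13189) stood at 0.03 ± 0.42. Broad-complex (sw03828), a transcription factor of the switch to the pupa, stood at 0.44 ± 0.42, and a second broad-complex probe (sw10835) at 0.003 ± 0.39. Carboxylesterases, the enzyme family of Jhe, had 14 of 45 probes tested with a median of 0.15 and 0 at an unadjusted p under 0.05. Their smallest p-values were those of an antennal esterase (sw09098, 0.47 ± 0.04) and a carboxylesterase matched to cauxin of the cat (sw22790, 0.52 ± 0.45).

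The list of hemolymph lipid carriers, which can also carry lipid hormones, had 15 of 32 probes tested and a median of 0.22. By wording it also took in a lipophorin receptor (sw22888) and a vitellogenin receptor (sw12049). The list's medians of 1.10, 0.01 and -0.40 in replicates 1, 2 and 3 again put the largest value in replicate 1. At an unadjusted limma p under 0.05, 1 probe was higher and 0 were lower. That was a microvitellogenin-like probe (sw12287), with a mean of 0.70 ± 0.31 (limma adjusted p = 0.45), higher on every array. Another (sw22523) stood at 1.08 ± 1.20, with ratios of 2.47, 0.34 and 0.44 in replicates 1, 2 and 3. The other 2 microvitellogenin-like probes had means of -0.14 ± 1.53 (sw22074) and -0.084 ± 1.498 (sw18899), from ratios of opposite sign. In replicates 1, 2 and 3 the ratios were 1.62, -1.05 and -1.003 for sw22074. For sw18899 they were 1.64, -1.03 and -0.87. Apolipophorin III (sw09945), a lipid carrier of the hemolymph, had the third smallest p of the list and a lower mean, -1.13 ± 1.39. Adjusted over all tested probes, 0 members of these 4 lists passed.

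**Figure D4:**
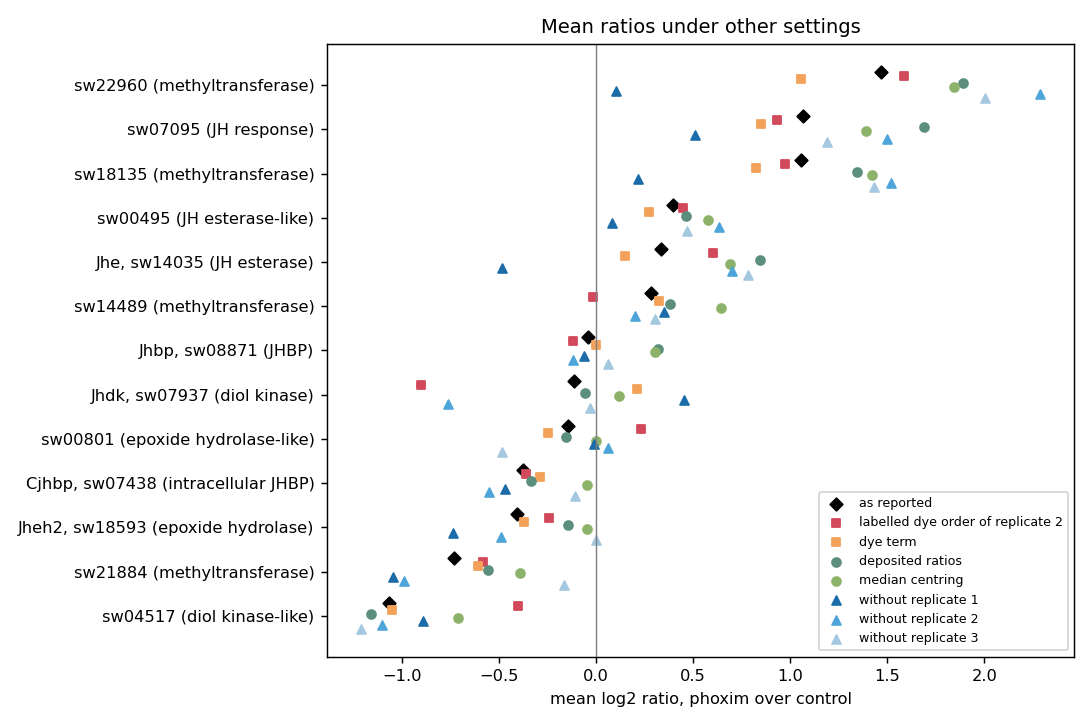
Mean log2 ratio of phoxim over control for the 13 tested probes as reported and under 7 other settings. The points of sw04517 stay left of 0 and those of sw07095 right of it, while Jhbp, Jhe and Jhdk have points on each side.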

How the data were processed

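Members and gene lists were chosen with earlier results of these data known. Per the labels, RNA was amplified with T7 polymerase before dye labelling, and the design text calls the replicates biological. Each dye's intensity was used as deposited. It was taken as background-subtracted already, with values among untested members down to -1 in Cy5. The uncorrected signal foreseen for normexp was not used here. The background limit of Cy3 was above that of Cy5 on every array, and whether an offset remained in Cy3 was not tested. The ratio deposited by the authors is phoxim over control per the file headers. The deposited log2 table equals its log2 within 1e-08, with medians of 0.01, -0.02 and 0.05. How the authors centred it stays unknown.

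In limma 3.58.1 (R 4.3.3), normexp (offset 50) and loess within arrays (control spots at weight 0) were applied. Of 23229 gene probes, 6154 passed the background filter. The mean ratio over 3 arrays was tested against 0 (lmFit and eBayes, two-sided, Benjamini-Hochberg over those probes), so that each array served as its own block. Over these probes the ratios correlated at 0.03 between replicates 1 and 2, 0.35 between 1 and 3 and 0.27 between 2 and 3. Sample levels came from Aquantile scaling of both channels. No member was saturated (99% of a channel's maximum). The number of arrays limits the precision. The alternatives changed the dye order, background, normalization, filter, weights, dye term and replicates. Full values go to the 5 smallest p-values in each direction, the 3 brightest members and the brightest of each role, and the remaining tested members are given as well.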

Additional observations from a re-analysis of the deposited data

Results flagged for a closer look

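Among the 34 probes outside the fit, 6 had a phoxim sample that was above its background and above every control sample, all of them in phoxim replicate 3, the sample with the lowest background. The JHBP-like probe sw19372 had a normalized log2 level of 9.03 there, against 8.44 in the highest control sample. The methoprene-tolerant-like probe sw11369 had 7.52, against 6.91. The diol kinase-like probe sw09988 had 7.14, against 6.47, and sw08065, which shares its ESTs, had 7.19, against 7.003. The esterase-like probe sw01246 had 7.61, against 7.39, and the nuclear binding protein probe sw01123 had 7.49, against 7.31. Other untested probes went the other way, with control replicate 1 above its background and above every phoxim sample. There sw20366 had 10.49, against 7.39 in the highest phoxim sample, and sw02554 had 9.35, against 6.76. Probe sw15691 had 8.70, against 7.62, and sw02018 had 8.64, against 8.08. The share of such probes among all untested gene probes was not determined. None of these signals was repeated in every replicate, and the part of the background difference between dyes was not tested.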

How the results depend on the processing

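Under every alternative that was run, 0 members and 0 of all probes passed limma's adjusted p of 0.05. The count of all probes at an unadjusted limma p under 0.05 (673) was 297 with the labelled dye order of replicate 2 and 376 with a dye term. It was 1869 without the dim filter and 349 with the stricter dim filter (both RNAs above background on every array). With 1 replicate left out it lay between 332 and 708, lowest without replicate 3. It rose to 1005 with array weights, 838 with the deposited ratios, 788 with median centring and 733 without background correction. Among the members this count (2) was 1 with the labelled order, without the dim filter and with a dye term. It was 3 with median centring (sw07095, sw18135 and sw22960, without sw04517) and with array weights (sw21884 added), and 2 or 3 with a replicate left out. The members' median (-0.04) was 0.30 with median centring, which moved the median of all probes to 0.24, and 0.32 with the deposited ratios. It was 0.28 without the diol kinase members, an alternative chosen after seeing the data, -0.08 with 1 probe for the shared contig, likewise, and -0.01 to 0.06 with a replicate left out. Signs turned for Jhbp (sw08871: 0.030 without background correction, 0.30 with median centring, 0.32 with the deposited ratios, 0.00058 with a dye term, -0.12 to 0.063 with a replicate left out), Jhdk (sw07937: 0.12 with median centring, 0.21 with a dye term, -0.76 to 0.45 with a replicate left out), Jhe (sw14035: -0.084 with array weights, -0.48 to 0.78 with a replicate left out), sw00801 (0.23 with the labelled order, 0.056 with array weights, -0.49 to 0.063 with a replicate left out) and sw14489 (-0.016 with the labelled order). The other 8 members kept their sign in every setting that tested them. Causes were not tested. No paired analysis was possible beyond the array itself because each array already holds 1 phoxim and 1 control sample.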
